A study of Homo sapiens with 24 samples.

Results

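The tumour necrosis factor (TNF) superfamily consists of trimeric ligands, most of them anchored in the cell membrane, and of the receptors that bind them. Receptors with a death domain can start apoptosis, and many of the others recruit TRAF adaptor proteins that activate canonical or alternative NF-kB signalling. In B cells the family is known for survival signals from BAFF and APRIL, for the lymphotoxin signals that organise lymphoid tissue, and for costimulation between B cells and T cells. Constitutive NF-kB activity is a known feature of the activated B-cell-like (ABC) form of diffuse large B-cell lymphoma (DLBCL).

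Every gene named TNFSF or TNFRSF followed by a digit on the array was taken, together with TNF, LTA, LTB and LTBR. This gave 36 genes, 14 ligands and 22 receptors, of 30142 genes measured. Symbols were those of the array design, and 9 of the 36 had several probes, in which case the brightest stood for the gene. Members of the superfamily with other symbols, such as CD27 and CD40, were kept in a separate list.

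Expression was measured on 24 two-colour arrays of 4 DLBCL cell lines, DB and K422 of the germinal centre B-cell-like (GCB) form and HBL-1 and OCI-Ly3 of the ABC form. Cells were treated for 48 h with 1 uM of a small interfering RNA (siRNA) against the transcription factor FOXP1, siFOXP1_308 (siFOXP1 #1) or siFOXP1_309 (siFOXP1 #2), or with a non-silencing siRNA (siCtrl). Each line and siRNA had 3 replicates from separate experiments, and each array compared silenced cells, labelled with Cy3, with control cells, labelled with Cy5. Because the dyes were never swapped, a dye bias of a probe and a response to silencing cannot be told apart within a line. Each form of lymphoma was represented by 2 lines, so tests across arrays describe these lines and not the forms in general. RNA came from whole cultures, in which fewer cells of a kind and less RNA per cell cannot be told apart.

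FOXP1 was lower in silenced than in control cells on all 24 arrays. The mean log2(siFOXP1/siCtrl) was -1.74 ± 0.55 for HBL-1, -1.96 ± 0.54 for OCI-Ly3, -1.998 ± 0.79 for DB and -1.34 ± 0.47 for K422 (SD, n = 6 arrays). siFOXP1 #2 lowered it further than siFOXP1 #1, by 1.03 log2 units on average over the lines (limma, adjusted p = 9.48e-07). In all 4 lines the B cell markers MS4A1, CD79A, CD79B, PAX5 and CD22, used as a check, were above background in every control channel. On silencing CD79A (0.56), CD79B (0.59) and CD22 (0.89) rose in HBL-1 and MS4A1 (0.64) in OCI-Ly3, and their part in the results on the family in these lines was not tested. Of 5 germinal centre markers, 5 were above background on all control arrays in each GCB line and 2 in each ABC line, and of 5 markers of activated B cells and plasmablasts 2 were in each GCB line, 5 in OCI-Ly3 and 4 in HBL-1. Of 14 T cell, myeloid and stromal markers, 2 to 7 were above background on all control arrays of a line, the 7 being in K422. Of these 14, CSF1R (-0.99) and PECAM1 (0.65) changed on silencing in K422 and COL1A1 (0.52) and PECAM1 (0.53) in OCI-Ly3. Among the germinal centre markers MYBL1 (1.12) and MME (0.69) rose in K422. Among the markers of activated B cells and plasmablasts, CCND2 fell in HBL-1 (-0.99) and OCI-Ly3 (-0.60), and PRDM1 rose in HBL-1 (0.73). CD44 fell in DB (-0.61) and in K422 (-0.53), where no control array was above background. The part of these changes in the results on the family was not tested. Between 57.2 and 64.4% of probes were above background on an array, and precision is limited by how many arrays there were.

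The promoters are shown of members that the reference table held and that had a call which every alternative setting kept, because the targeted protein is a forkhead transcription factor. The 250 bases before the annotated start are given 5′ to 3′ on the gene's strand from RefSeq (GRCh38.p14), with the forkhead core in capitals.
LTB, chr6:31582426-31582675, minus strand: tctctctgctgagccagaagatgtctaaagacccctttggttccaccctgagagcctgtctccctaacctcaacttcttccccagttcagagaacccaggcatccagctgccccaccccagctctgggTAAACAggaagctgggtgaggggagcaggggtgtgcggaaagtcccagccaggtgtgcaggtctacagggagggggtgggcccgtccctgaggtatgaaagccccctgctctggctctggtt
TNFRSF21, chr6:47309906-47310155, minus strand: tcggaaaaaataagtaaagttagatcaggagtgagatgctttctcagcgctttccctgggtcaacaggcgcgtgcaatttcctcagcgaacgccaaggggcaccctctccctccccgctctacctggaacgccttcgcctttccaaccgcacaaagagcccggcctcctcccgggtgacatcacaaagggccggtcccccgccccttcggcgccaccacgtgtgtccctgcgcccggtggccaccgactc
TNFSF10, chr3:172523431-172523680, minus strand: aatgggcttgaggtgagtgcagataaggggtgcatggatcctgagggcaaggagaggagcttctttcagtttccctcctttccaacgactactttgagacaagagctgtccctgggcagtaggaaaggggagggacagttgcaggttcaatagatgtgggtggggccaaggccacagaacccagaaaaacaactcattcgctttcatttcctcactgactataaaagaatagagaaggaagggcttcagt

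The search was for TGTTTA on either strand (TAAACA on the other), a core shared by forkhead sites. In LTB the match began 122 bases before the start, and it lay within the longer GTAAACA. The windows of TNFRSF21 and TNFSF10 did not hold these letters. Of the 36 members 25 had a promoter in the table, and of these LTB and TNFSF11 held the core, against 11.1% of 27305 promoters of the same length. The kappa B consensus, bound by NF-kB, was found in LTB, TNFRSF14, TNFRSF9 and TNFSF14, against 9.57% of all promoters. In LTB it began 86 bases before the start and did not overlap the forkhead core. A match describes letters only, and nothing follows from it about binding in these cells. TNFRSF13C and TNFRSF4 were among the 11 members not in the table.

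A member was called when its adjusted p over all genes in limma was under 0.05 and its mean log2 ratio reached 0.5 in size. In DB the only called member was TNFSF14, which was lower, while 1.33% of all genes were called higher and 0.829% lower. In K422 TNFRSF21 and TNFSF4 were called higher and LTB, TNFRSF11A and TNFSF14 lower, against 2.34% and 2.1% of all genes. In HBL-1 LTB, TNFRSF13C, TNFRSF4 and TNFSF4 were called higher and TNFSF14 lower, against 5.73% and 4.17%. In OCI-Ly3 LTB, TNFRSF11A and TNFSF10 were called higher, against 2.8% of all genes called higher and 1.62% lower. Called members thus made up 1 of 36 in DB, 5 in either of K422 and HBL-1 and 3 in OCI-Ly3. The median log2 ratio of the 36 was 0.14 for OCI-Ly3, 0.09 for HBL-1, 0.03 for DB and -0.05 for K422, where that of all genes was 0. The mean responses above 1 were those of TNFRSF21 in K422 and of LTB and TNFRSF13C in HBL-1, as the map of mean log2 ratios shows.

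**Figure D1:**
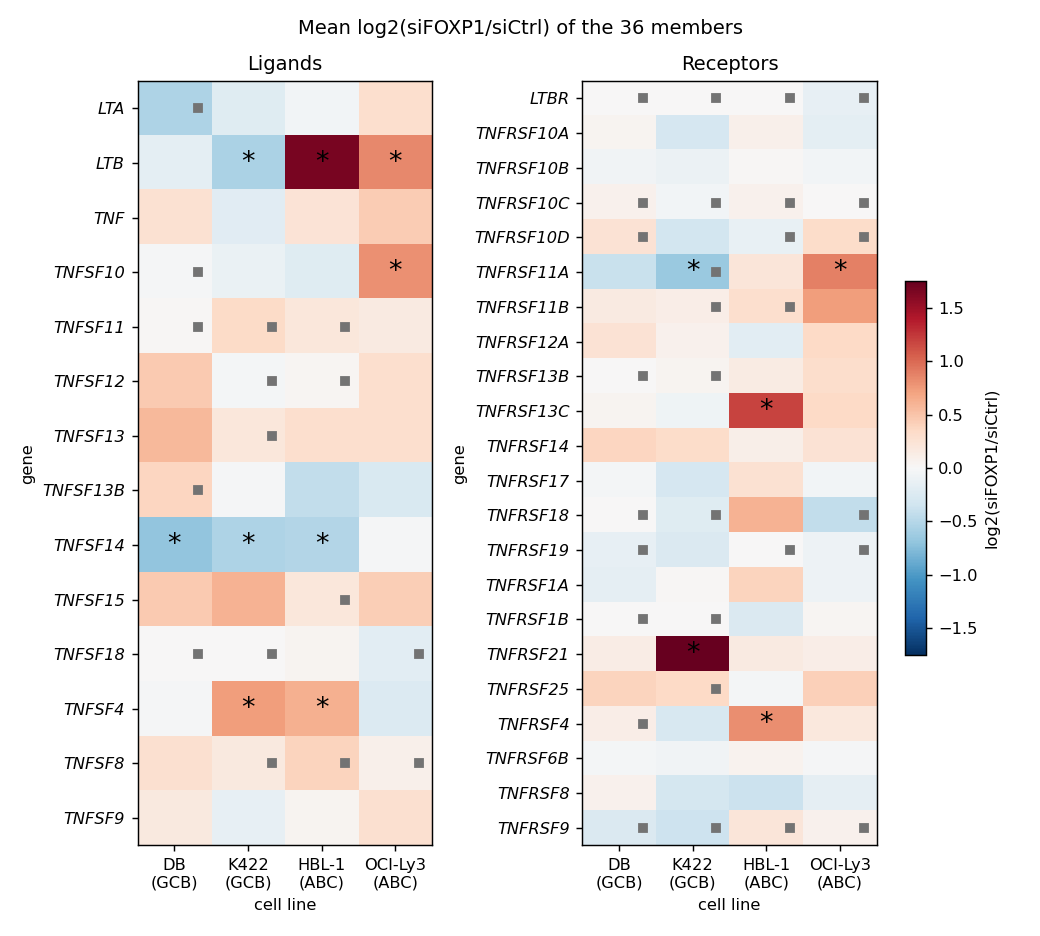
Mean log2(siFOXP1/siCtrl) over 6 arrays for the 14 ligands (left) and 22 receptors (right), 1 row a gene and 1 column a cell line, with red for higher and blue for lower in silenced cells. Asterisks mark called members and grey squares mark members whose probe was not well above background in either channel on any of the 6 arrays; the darkest cells are TNFRSF21 in K422 (1.77) and LTB in HBL-1 (1.65).

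LTB encodes lymphotoxin beta, which anchors lymphotoxin alpha (LTA) in the membrane as a ligand of the lymphotoxin beta receptor. It was higher in silenced cells on all 12 arrays of the ABC lines and rose in both. In HBL-1 its log2 ratios were 1.59, 1.19 and 1.56 with siFOXP1 #1 and 1.76, 1.84 and 1.98 with siFOXP1 #2, a mean of 1.65 ± 0.28 or 3.15-fold (SD, n = 6; SE 0.10; adjusted p = 1.74e-09). In OCI-Ly3 they were 0.77, 0.78 and 0.86 with siFOXP1 #1 and 0.93, 0.75 and 0.91 with siFOXP1 #2, a mean of 0.84 ± 0.08 or 1.78-fold (adjusted p = 1.24e-05). No array of a GCB line reached the lowest of these values.

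In DB the LTB ratios were -0.34, -0.29 and -0.44 with siFOXP1 #1 and 0.08, -0.06 and 0.00 with siFOXP1 #2, and the mean of -0.17 was not called (adjusted p = 0.305). In K422 they were -0.98, 0.20 and -0.04 with siFOXP1 #1, which spanned 0, and -0.77, -0.91 and -0.79 with siFOXP1 #2. The K422 mean of -0.55 ± 0.50 was called (adjusted p = 0.000625), but without siFOXP1 #1 replicate 1 it was -0.37 and under the required size. The methods' t-test did not call it either (adjusted p = 0.147).

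**Figure D2:**
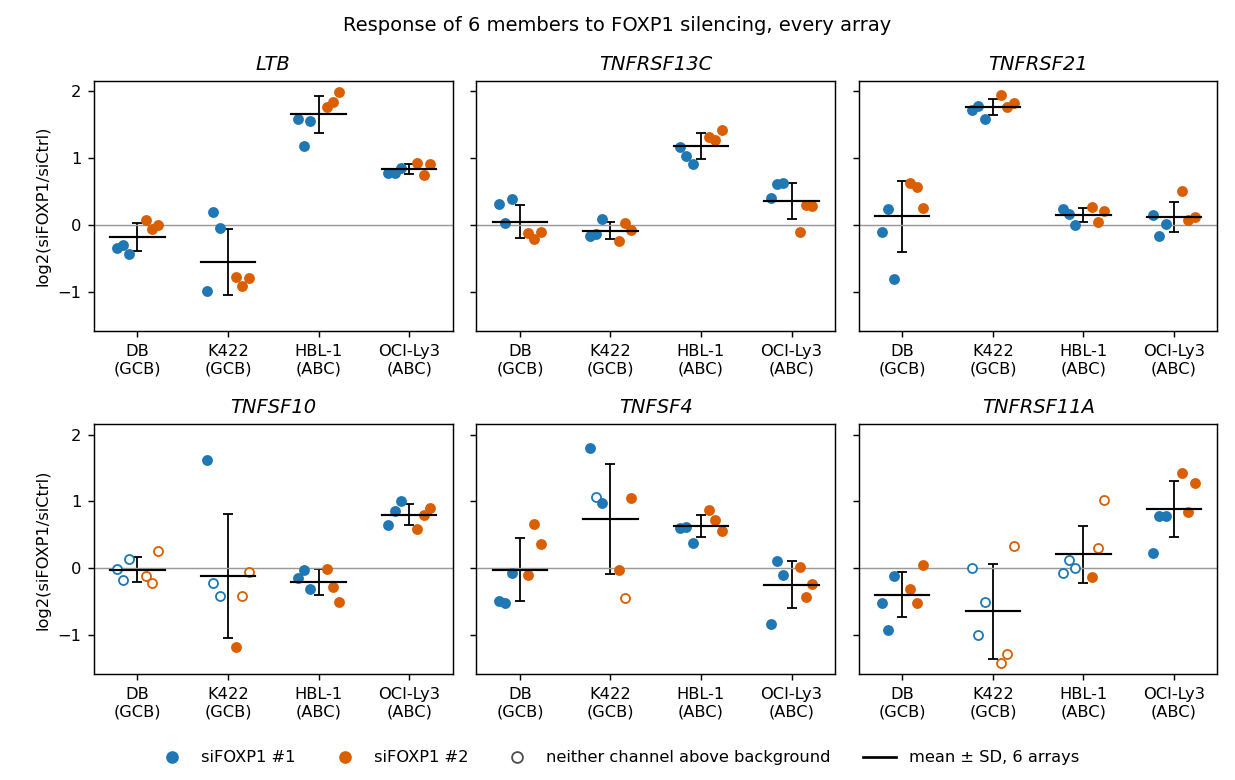
log2(siFOXP1/siCtrl) on every array for 6 called members, by cell line; blue points are siFOXP1 #1, orange points siFOXP1 #2, open points arrays on which neither channel was well above background, and black lines the mean ± SD of 6 arrays. LTB lay at or above 0.75 on all 12 arrays of the ABC lines and at or below 0.20 on all 12 of the GCB lines, TNFRSF21 at or above 1.59 in K422, and TNFSF10 between 0.59 and 1.01 in OCI-Ly3.

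LTA, TNF and LTB are neighbours on chromosome 6. Their probes lay at chr6:31649133-31649192, chr6:31653816-31653875 and chr6:31656448-31656507 (hg18), LTA and TNF on the plus strand and LTB on the minus strand. TNF, the founding cytokine of the family, was 0.45 ± 0.25 higher in OCI-Ly3 (adjusted p = 0.000175), on all 6 arrays but under the size required for a call. Its log2 ratios there were 0.62, 0.69 and 0.64 with siFOXP1 #1 and 0.39, 0.24 and 0.09 with siFOXP1 #2. The siRNAs did not overlap there, and their difference within this line was not tested. A second TNF probe gave 0.54 in OCI-Ly3. In HBL-1, where LTB rose most, TNF was at 0.23 ± 0.11 and LTA at -0.04 ± 0.17 (adjusted p = 0.014 and 1). LTA was at 0.30 ± 0.28 in OCI-Ly3 (adjusted p = 0.346) and was not well above background on any array of DB. The values of the neighbours by distance show that LTB departed from the other two in HBL-1.

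**Figure D3:**
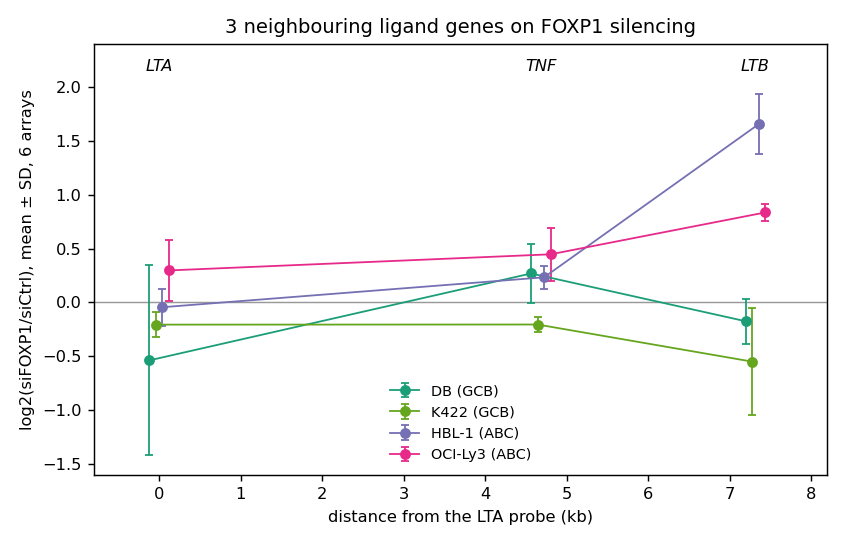
Mean log2(siFOXP1/siCtrl) ± SD over 6 arrays for LTA, TNF and LTB against the distance of each probe from the LTA probe in kb, with lines joining the values of a cell line as a guide. In HBL-1 LTA (-0.04) and TNF (0.23) stayed near 0 and LTB stood at 1.65; LTA was not above background in DB.

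The receptors of these ligands were not called in any line by limma. LTBR, the receptor of membrane lymphotoxin, was not well above background in either channel on any of the 24 arrays. TNFRSF1A, the death-domain TNF receptor, ranged from -0.16 in DB to 0.40 in HBL-1. TNFRSF1B, the TNF receptor without a death domain, was above background in the ABC lines and not in the GCB lines, with log2 ratios of -0.25 in HBL-1 and 0.04 in OCI-Ly3.

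TNFRSF13C encodes the BAFF receptor, which carries survival signals of mature B cells. In HBL-1 it rose on all 6 arrays, with log2 ratios of 1.16, 1.03 and 0.91 with siFOXP1 #1 and 1.32, 1.28 and 1.43 with siFOXP1 #2. The mean was 1.19 ± 0.19, or 2.28-fold (SE 0.06, adjusted p = 1.74e-10), and every siFOXP1 #2 array stood above every siFOXP1 #1 array. In OCI-Ly3 its log2 ratios were 0.41, 0.61 and 0.63 with siFOXP1 #1 and -0.10, 0.30 and 0.28 with siFOXP1 #2, so that the siRNAs stood in the opposite order. Neither difference between the siRNAs was tested within its line. The OCI-Ly3 mean of 0.35 ± 0.27 was under the size of a call (adjusted p = 0.000343). In DB and K422 the means were 0.05 and -0.08, with arrays on both sides of 0.

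The other genes of the BAFF and APRIL system were not called on silencing. TNFSF13B, encoding BAFF, was at -0.43 ± 0.31 in HBL-1 and lower on all 6 arrays (adjusted p = 0.127). TNFSF13, encoding APRIL, was at 0.57 ± 0.38 in DB (adjusted p = 0.0641), where its control channel was above background on 2 of 6 arrays. TNFRSF13B, encoding the receptor TACI, reached 0.30 ± 0.41 in OCI-Ly3 (adjusted p = 0.0147). TNFRSF17, encoding the receptor BCMA, ranged from -0.29 in K422 to 0.26 in HBL-1.

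TNFRSF21 encodes a receptor with a death domain, DR6. In K422 it rose by 1.77 ± 0.12 or 3.41-fold (SE 0.10, adjusted p = 2.23e-09), with log2 ratios of 1.72, 1.78 and 1.59 with siFOXP1 #1 and 1.94, 1.76 and 1.82 with siFOXP1 #2. siFOXP1 #2 lowered FOXP1 further than siFOXP1 #1 in this line, to -1.76 against -0.91. Whether the TNFRSF21 response followed the depth of silencing was not tested. A second TNFRSF21 probe gave 2.01 in K422. In DB the arrays spanned -0.81 to 0.63 around a mean of 0.13 (adjusted p = 0.461), with the 3 siFOXP1 #2 arrays at 0.63, 0.58 and 0.25. HBL-1 and OCI-Ly3 had means of 0.15 and 0.12 (adjusted p = 0.263 and 0.461).

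TNFSF10 encodes TRAIL, a ligand that can trigger apoptosis. In OCI-Ly3 it rose by 0.80 ± 0.16 or 1.74-fold (adjusted p = 0.00565), with log2 ratios of 0.64, 0.86 and 1.01 with siFOXP1 #1 and 0.59, 0.80 and 0.90 with siFOXP1 #2. In HBL-1, where TNFSF10 was also above background on all arrays, its mean was -0.21 ± 0.19 (adjusted p = 0.484), and the arrays of the 2 ABC lines did not overlap; the difference between them was not tested. In K422 it was above background in a channel on 2 of 6 arrays, with values from -1.18 to 1.61, and in DB on none. Its death-domain receptors TNFRSF10A and TNFRSF10B were above background on all arrays and were not called, with means between -0.29 and 0.09. The decoy receptors TNFRSF10C and TNFRSF10D, which are close paralogues, were above background on at most 1 array of a line.

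TNFSF4 encodes the ligand of the T cell costimulatory receptor OX40. In HBL-1 it rose on all 6 arrays, with log2 ratios of 0.61, 0.62 and 0.38 with siFOXP1 #1 and 0.87, 0.72 and 0.56 with siFOXP1 #2 (mean 0.63 ± 0.16, adjusted p = 0.00612). In K422 they were 1.80, 1.07 and 0.97 with siFOXP1 #1 and -0.03, -0.44 and 1.05 with siFOXP1 #2 (mean 0.74 ± 0.82, adjusted p = 0.00349). There no control channel but 4 of 6 silenced channels were well above background, so that no fold is given. After background correction by normexp with loess TNFSF4 was at 0.30 in HBL-1 and 0.03 in K422, both short of a call. OCI-Ly3 and DB had means of -0.25 and -0.02.

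TNFRSF4, which encodes OX40, was called higher in HBL-1 (0.81 ± 0.57, adjusted p = 0.0192) with the silenced channel above background on 1 array and the control channel on none. The call was lost without siFOXP1 #1 replicate 2 (0.68), siFOXP1 #1 replicate 3 (0.79) or siFOXP1 #2 replicate 2 (0.61), and normexp with loess left 0.08. It was also lost with the slide as a block (adjusted p = 0.101). TNFRSF18, encoding the costimulatory receptor GITR, was higher on all 6 arrays of HBL-1, from 0.27 to 0.81, and was not called (0.61 ± 0.20, adjusted p = 0.232). As for every gene, the variance estimate came from all 24 arrays, and TNFRSF18 was not above background in the other lines. What this did to the TNFRSF18 result was not tested. TNFRSF9, TNFSF18, TNFSF9, TNFRSF8 and TNFSF8, which also act in costimulation, were not called.

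TNFSF14 encodes LIGHT, a ligand of the herpesvirus entry mediator TNFRSF14. It was the only member called lower in more than 1 line. In HBL-1 its log2 ratios were -0.77, -0.42 and -0.68 with siFOXP1 #1 and -0.52, -0.33 and -0.37 with siFOXP1 #2, lower on all 6 arrays (mean -0.51 ± 0.18, adjusted p = 0.0153). The value was close to the size of a call and fell short of it without siFOXP1 #1 replicate 1 (-0.48), siFOXP1 #1 replicate 3 (-0.50) or siFOXP1 #2 replicate 1 (-0.49), and after normexp with loess (-0.34). In DB the values were -0.53, -0.94 and 0.21 with siFOXP1 #1 and -1.22, -0.62 and -1.07 with siFOXP1 #2 (mean -0.70 ± 0.52, adjusted p = 0.00603). In K422 they were -0.96, 0.27 and -0.20, and -0.42, -0.66 and -1.29 (mean -0.54 ± 0.55, adjusted p = 0.0179).

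In both GCB lines TNFSF14 was above background on 2 of 6 silenced and 3 of 6 control channels. Normexp with loess left -0.09 in DB and -0.02 in K422, and the K422 call was lost without siFOXP1 #1 replicate 1 (-0.38) or siFOXP1 #2 replicate 3 (-0.42). It was lost too with the replicate number or the slide as a block (adjusted p = 0.0575 and 0.06), and the slide block ended the HBL-1 call (adjusted p = 0.0545). In OCI-Ly3, where TNFSF14 was above background on every array, the mean was -0.02 ± 0.27. The receptor TNFRSF14 and the soluble decoy receptor TNFRSF6B were not called in any line by limma, with means from 0.10 to 0.38 and from -0.07 to 0.07.

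TNFRSF11A encodes RANK, the receptor of RANK ligand and an activator of NF-kB. In OCI-Ly3 its log2 ratios were 0.23, 0.78 and 0.78 with siFOXP1 #1 and 1.42, 0.84 and 1.27 with siFOXP1 #2 (mean 0.89 ± 0.42, adjusted p = 0.0037). The siFOXP1 #2 values were all the higher, a difference not tested within this line. The silenced channel was above background on 6 arrays and the control channel on 1. A second probe gave 1.90 in OCI-Ly3, and normexp with loess left 0.14 for the first. In K422 the mean of -0.64 ± 0.71 passed the test (adjusted p = 0.027) although neither channel was above background on any array, and it was 0.018 after normexp with loess. That call was also lost without siFOXP1 #1 replicate 2 (-0.52), siFOXP1 #1 replicate 3 (-0.65), siFOXP1 #2 replicate 1 (-0.49) or siFOXP1 #2 replicate 2 (-0.52), and with the replicate number or the slide as a block (adjusted p = 0.0638 and 0.14). The RANK ligand gene TNFSF11 was above background on 1 of 24 arrays.

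The list of 31 further pathway genes held 11 superfamily genes with other symbols and 20 adaptors and NF-kB components. In HBL-1 limma called CD27, TANK and NFKB2 higher and EDA lower, in OCI-Ly3 EDA lower, and in DB and K422 none of the 31. These 4 and 1 of 31 stood against 9.9% and 4.42% of all genes called in either direction. At an unadjusted p under 0.05, HBL-1 had 20 of the 31, against 38.4% of all genes. OCI-Ly3 had 13, against 29.2% of all genes. For K422 the number was 15, against 30%, and for DB it was 8, against 23.5%. CD27, the receptor of CD70 on B and T cells, rose by 1.33 ± 0.49 in HBL-1 (adjusted p = 1.58e-07), with 1.03, 0.65 and 1.101 for siFOXP1 #1 and 1.93, 1.44 and 1.82 for siFOXP1 #2. EDA, encoding ectodysplasin, was not above background on any array of either ABC line (-0.82 and -0.89), and a second probe gave -0.07 and 0.20. TANK, a TRAF-binding adaptor, rose by 0.54 in HBL-1, and NFKB2, the precursor subunit of alternative NF-kB, rose by 0.57. The median of the 31 was 0.12 in HBL-1 and 0.10 in OCI-Ly3, against 0.02 in DB and 0.05 in K422.

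The response was then compared between the ABC and the GCB lines as a difference of log2 ratios, in which a dye bias common to all arrays cancels. LTB, TNFRSF11A and TNFRSF13C responded higher in the ABC lines, against 1.4% of all genes, and TNFRSF21 lower, against 0.866%. For LTB the difference was 1.61 (SE 0.10, adjusted p = 2.03e-08). Within a scan session it was 2.20 for HBL-1 against K422 and 1.01 for OCI-Ly3 against DB (adjusted p = 1.6e-08 and 0.000392). On the slides that held arrays of both forms it was 2.09 and 1.07, in the same order, with 2 arrays a line. LTB thus differed in the same direction in each of these pairs of lines.

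The other 3 members passed the test in 1 of these pairs each. TNFRSF13C differed by 0.79 overall (adjusted p = 1.87e-07), by 1.27 for HBL-1 against K422 and by 0.30 for OCI-Ly3 against DB (adjusted p = 2.56e-08 and 0.0601), with 1.23 and 0.012 within slides. TNFRSF21 differed by -0.81 overall (adjusted p = 3.24e-05), by -1.61 for HBL-1 against K422 and by -0.014 for OCI-Ly3 against DB (adjusted p = 4.84e-07 and 1), with -1.45 and 0.61 within slides. TNFRSF11A differed by 1.07 overall (adjusted p = 0.0021), by 0.85 for HBL-1 against K422 and by 1.28 for OCI-Ly3 against DB (adjusted p = 0.0617 and 0.0155), with -0.016 and 0.86 within slides. With the 4 line means as the units limma called 0 genes, and 3 of the 36 members had an unadjusted p under 0.05, against 4.78% of all genes. After normexp with loess TNFRSF11A (0.18) and TNFRSF21 (-0.46) were short of a call, and the methods' t-test over arrays called LTB, TNFRSF11A and TNFRSF13C but not TNFRSF21. For TNFSF14 the difference of 0.35 did not pass (adjusted p = 0.194), nor for TNFSF4 that of -0.17 (adjusted p = 0.634).

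Between the siRNAs limma called 0 of the 36 members, against 0.189% of all genes, FOXP1 among them. At an unadjusted p under 0.05 there were 4 members, TNFRSF13C, TNFRSF17, TNFRSF21 and TNFRSF25, against 10.8% of all genes, and 2 by the methods' test, against 6.95%. The difference, siFOXP1 #2 minus siFOXP1 #1, was 0.45 for TNFRSF17 and -0.47 for TNFRSF25 (adjusted p = 0.14 and 0.184).

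Levels in control cells were compared within a scan session, as log2 of the Cy5 signal relative to the 75th percentile of the array, with 3 averaged profiles a line. A level describes a gene across lines and cannot be set against that of another gene. Of the 36 members 9 were above background on every control channel of all lines and 5 on none. The numbers above background on all 6 control channels were 15 for either GCB line, 23 for HBL-1 and 20 for OCI-Ly3. A difference was called at an adjusted p under 0.05 and a size of at least 1. Between OCI-Ly3 and DB 13 members were called higher in OCI-Ly3 and 10 lower, against 13.3% and 12.3% of all genes. Between HBL-1 and K422 11 were called higher in HBL-1 and 6 lower, against 12.5% and 13.2%. Among these 6, TNFRSF10D (-1.24) was above background on no control array of either line. Among the 10 lower in OCI-Ly3, TNFRSF11B (-1.28) lost its call in all 5 other settings that gave it a value.

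**Figure D4:**
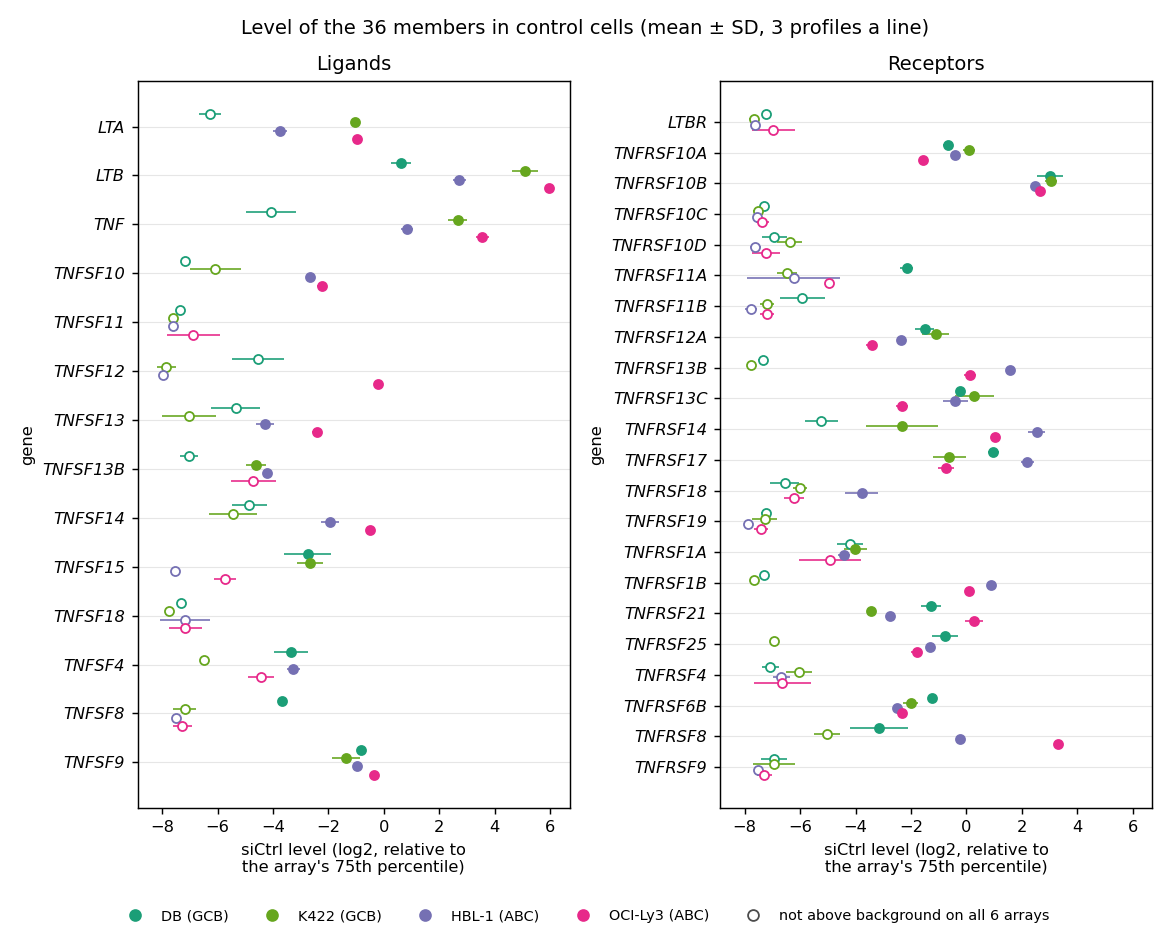
Level in control cells (mean ± SD of 3 profiles a line, log2 relative to the array's 75th percentile) of the ligands (left) and receptors (right), coloured by cell line, with open points where the control channel was not above background on all 6 arrays. TNFRSF13B and TNFRSF1B stand between 0.10 and 1.58 in the ABC lines and at background in the GCB lines, whereas LTB, TNF and LTA are highest in OCI-Ly3 and K422.

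In both comparisons 15 members were called, against 12.2% of all genes. TNFRSF13B, TNFRSF14, TNFRSF1B, TNFRSF8, TNFSF10, TNFSF13 and TNFSF14, 7 of the 36, were higher in the ABC line both times, against 5.04% of all genes. TNFRSF12A and TNFSF15 were lower both times, against 3.77%. TNFRSF13B, the receptor TACI, had levels of 1.45, 1.61 and 1.68 in HBL-1 and 0.36, -0.04 and 0.04 in OCI-Ly3, and it was not well above background on any control array of K422 or DB. It was at least 156-fold higher in HBL-1 than in K422 and at least 31.0-fold higher in OCI-Ly3 than in DB (limma, adjusted p = 5.32e-12 and 1.65e-11). TNFRSF1B was at least 96.1-fold and at least 30.6-fold higher in these pairs, with levels of 0.88 ± 0.14 in HBL-1 and 0.10 ± 0.10 in OCI-Ly3. Such a bound sets the bright line against the lowest signal of any probe above background on each dim array. Here and below it holds for the main processing only. Over the other settings the smallest log2 differences in these pairs were 4.46 and 3.15 for TNFRSF13B. For TNFRSF1B they were 3.72 and 3.09.

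TNFRSF8, encoding the lymphoma antigen CD30, was at 3.32 ± 0.05 in OCI-Ly3 against -3.14 ± 1.05 in DB, a difference of 6.47, and at -0.21 ± 0.18 in HBL-1 against -5.02 ± 0.47 in K422, where 3 of 6 arrays were above background. TNFRSF14 was at 1.02 ± 0.01 in OCI-Ly3 and -5.23 ± 0.59 in DB, above background on 2 of 6 arrays of the latter. It was at 2.53 ± 0.30 in HBL-1 and -2.32 ± 1.29 in K422, a difference of 4.85 (adjusted p = 1.73e-05). Its ligand gene TNFSF14 was 4.34 higher in OCI-Ly3 than in DB and 3.49 higher in HBL-1 than in K422, where the GCB lines had 3 of 6 arrays above background. TNFSF10 was at least 6.03-fold higher in OCI-Ly3 than in DB and 3.41 higher on the log2 scale in HBL-1 than in K422. TNFSF13 was 2.92 higher on the log2 scale in OCI-Ly3 than in DB, where 2 of 6 arrays were above background, and at least 2.401-fold higher in HBL-1 than in K422. TNFSF15, a ligand of the death-domain receptor TNFRSF25, was at least 6.56-fold lower in OCI-Ly3 than in DB and at least 8.75-fold lower in HBL-1 than in K422. TNFRSF12A, the receptor of TWEAK, differed by -1.92 and -1.25. After normexp, loess and Aquantile normalisation the difference was under the size of a call for TNFSF13 in both pairs (0.82 and 0.37). So it was for TNFSF10 (0.80) and TNFRSF12A (-0.91) in HBL-1 against K422, and for TNFSF15 (-0.99) in OCI-Ly3 against DB. Over the other settings the smallest log2 difference was -1.09 for TNFSF15 in HBL-1 against K422. For TNFSF10 in OCI-Ly3 against DB it was 1.29. The bounds on TNFSF10, TNFSF13 and TNFSF15 were thus not kept across settings.

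The genes of the chromosome 6 cluster were higher in OCI-Ly3 than in DB and lower in HBL-1 than in K422. LTB was at 0.22, 0.68 and 0.93 in DB, 5.62, 4.92 and 4.75 in K422, 2.98, 2.52 and 2.64 in HBL-1, and 5.91, 5.98 and 5.99 in OCI-Ly3. Its level was 5.35 higher in OCI-Ly3 than in DB and differed by -2.38 between HBL-1 and K422 (adjusted p = 1.04e-08 and 1.07e-05). TNF was 7.63 higher in OCI-Ly3 than in DB and differed by -1.83 between HBL-1 and K422. LTA was at least 14.9-fold higher in the first pair and differed by -2.70 in the second. The smallest log2 difference of LTA in the first pair over the other settings was 2.13. TNFRSF17, TNFRSF25 and TNFSF4 also took opposite directions in the pairs, although TNFRSF25 (-0.78) and TNFSF4 (-0.47) were under the size of a call in OCI-Ly3 against DB after normexp, loess and Aquantile normalisation.

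The members called on silencing had no common order of control levels. TNFRSF21, which rose in K422, was at -3.43 ± 0.11 there, below DB (-1.28 ± 0.37), HBL-1 (-2.77 ± 0.10) and OCI-Ly3 (0.27 ± 0.32), where the difference of 0.66 between HBL-1 and K422 was under the size of a call, and DB and OCI-Ly3 were scanned in another session and not tested against K422. TNFRSF13C, which rose in HBL-1, was at -0.40 ± 0.44 there and at 0.28 ± 0.70 in K422, within their spread, and at -2.31 ± 0.22 in OCI-Ly3, a difference of -2.09 from DB (adjusted p = 0.000225). TNFSF4 was at least 4.89-fold higher in HBL-1 than in K422 in control cells. TNFRSF25 was at least 20.3-fold and TNFRSF18 at least 3.25-fold higher in that comparison, and TNFSF8 at least 3.68-fold lower in OCI-Ly3 than in DB. Normexp, loess and Aquantile normalisation left TNFSF4 (0.69), TNFRSF18 (0.36) and TNFSF8 (-0.73) under the size of a call. TNFSF12 was 4.33 higher in OCI-Ly3 than in DB, where 3 of 6 arrays were above background, and was not above background in K422 or HBL-1.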

How the data were processed

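RNA from 24 two-colour Agilent arrays was analysed from the deposited Feature Extraction output (versions 10.5.1.1 and 10.7.3.1, hg18). The authors' deposited log10 ratios were background-subtracted and dye-normalised by that software, and the sign was turned to log2(siFOXP1/siCtrl). Deposited intensities (Cy5 processed signal) gave control levels, and the deposited log2 matrix served as an alternative. Control and outlier spots were left out and probe spots averaged. R 4.3.3 and limma 3.58.1 fitted 1 mean per line and siRNA over all arrays, with Benjamini-Hochberg adjustment over 30142 genes. Control arrays of a line and replicate number, which may share control RNA, were averaged. Groups came from the labels. Alternatives covered background correction (normexp, offset 50), probe filters and means, blocks, the methods' t-test, and leaving out arrays. Scripts were tested on simulated data. Named genes were FOXP1, every called member, members called alike at baseline or among the 3 greatest differences each way, and pathway genes called in at least 2 lines or between forms; TANK, NFKB2 and the remaining members were named for completeness. Members and lists were chosen with earlier results of these data known. Motifs were searched with Python 3.11.15 in RefSeq sequences (GRCh38.p14). Whether the control RNA of the siRNAs was shared is not known; if it was, p-values are too small.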

Additional observations from a re-analysis of the deposited data

Results flagged for a closer look

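The response to silencing differed between the ABC and the GCB lines for 4 members and 2 pathway genes by the test of the difference itself (limma, 24 arrays). The differences in log2 ratio were 1.61 for LTB, 1.07 for TNFRSF11A, 0.79 for TNFRSF13C, -0.81 for TNFRSF21, 0.57 for CD27 and -0.91 for EDA (adjusted p = 2.03e-08, 0.0021, 1.87e-07, 3.24e-05, 0.00419 and 0.0363). In CD27 the difference came with a rise in HBL-1, where the log2 ratio was 1.33, and with 0.08 in OCI-Ly3. EDA was not above background in either channel in the ABC lines. TNFRSF11A was above background on no array of K422 and on 1 of 6 arrays of HBL-1. A test of the gap between an extreme array and the next, relative to the range, flagged no array in the 36 groups examined, 9 genes in 4 lines. Each group held the arrays of both siRNAs, whose differences widen the range. The result therefore does not show that the arrays of a line agreed.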

How the results depend on the processing

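TNFRSF21 in K422, LTB and TNFRSF13C in HBL-1, and LTB and TNFSF10 in OCI-Ly3 were called under all 8 other settings and without any 1 array. The numbers of called members moved more. Normexp with loess, and with median centring, left 2 in HBL-1, 2 in K422, 0 in DB and 2 in the comparison of forms. In these settings TNFRSF11A in K422 was at 0.018 and 0.080, and TNFSF14 in K422 at 0.025 with median centring. They add an offset of 50, which by construction draws ratios of dim probes towards 0, and they also change the background correction. Which of these steps lost the calls was not tested. DB had 3 called members with the deposited matrix, 2 with the filter on dim probes, 2 with the slide block and 0 with the methods' t-test, which left 1 in K422 and gave FOXP1 in DB its same -1.998 at an adjusted p of 0.0793. The slide block left 3 in K422, without TNFSF14 and TNFRSF11A, and 3 in HBL-1, without TNFSF14 and TNFRSF4. The comparison of forms gave 2 members between OCI-Ly3 and DB and 0 with the 4 line means. Within slides, chosen after seeing the data, TNFRSF11A was at -0.016 on the slide of HBL-1 and K422 and TNFRSF21 at 0.61 on that of OCI-Ly3 and DB. Baseline calls fell to 15 and 11 with normexp, loess and Aquantile. The cause was not tested in any setting.

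Same-numbered arrays of a line were not taken as pairs: their deviations correlated from 0.0467 to 0.284, over 0.1 in 6 of 12 pairs, although all 12 correlated best with their own number, a hint from the data and not the design. In DB all 3 pairs were over 0.1, and its 1 call was unchanged with the block. With the replicate block K422 had 3 called members, without TNFSF14 and TNFRSF11A, and the counts of the other comparisons stayed within 1.5 times.

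Leaving out 1 array at a time gave 3 to 5 called members in each of HBL-1, OCI-Ly3 and K422, 1 to 4 in DB, 4 to 5 between forms and 0 to 0 between siRNAs, and FOXP1 ratios of -2.09 to -1.92 (DB), -1.36 to -1.33 (K422), -1.81 to -1.66 (HBL-1) and -1.99 to -1.94 (OCI-Ly3). The 4 in DB were without siFOXP1 #1 replicate 2, and 3 without siFOXP1 #2 replicate 1. K422 had 3 without siFOXP1 #1 replicate 1, HBL-1 had 3 without siFOXP1 #1 replicate 3, and OCI-Ly3 had 5 without siFOXP1 #1 replicate 2. Baseline counts ranged from 20 to 23 and 16 to 17. Signal over background limits the values of TNFSF14 in the GCB lines and of TNFSF4 in K422. It also limits those of TNFRSF11A in K422, HBL-1 and OCI-Ly3, of TNFRSF4 in HBL-1 and of EDA in the ABC lines. In each of these a channel was not above background on all arrays.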
